A study of Mus musculus with 18 samples.

Results

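The neuronal cytoskeleton genes followed here in mouse small cell lung cancer are Nefl, Nefm, Nefh, Ina, Tubb3, Stmn2, Map2, Mapt, Dcx and Gap43. They were chosen by name, as 10 of the 46078 genes counted by RNA-seq, together with the ATAC-seq peaks that touch the stretch from 5000 bp upstream of each gene to its end. That stretch held 60 of 111664 peaks. The mice carried the strain alleles Rb1L/L, Rbl1L/L and p53L/L (TKO, with the p107 gene Rbl1 in the labels and Rbl2 in part of the study's text). One mutant group added Carm1L/L (CARM1 knockout), and the other added NfibR388K (NFIB mutant), which replaces the arginine of the transcription factor NFIB that the arginine methyltransferase CARM1 methylates. In all 3 groups Adenovirus-Cre was given into the trachea at 8 weeks of age, and tumor cells were collected from the lungs 28 weeks later, from 3 animals per genotype. By the study's methods the alleles were combined with a tdTomato reporter that Cre switches on in any cell it reaches, and cells were sorted for it. The promoter driving Cre was not given in the sources used here, and although the study took both assays from common tumors, whether a replicate number marks 1 tumor in both was not given either.

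Neurons build their processes on microtubules and on neurofilaments. Neurofilaments are polymers of a light, a medium and a heavy chain (Nefl, Nefm, Nefh) and of alpha-internexin (Ina). Microtubules of neurons contain the beta-tubulin Tubb3 and are bound along their length by Map2, tau (Mapt) and doublecortin (Dcx). They are taken apart by stathmins such as Stmn2, while Gap43 sits under the membrane of growing axons. Small cell lung cancer is a neuroendocrine tumor, and neuroendocrine cells share many of these genes with neurons.

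Depth was similar among libraries, with 15848866 to 20915057 counts on genes and 26917178 to 47653979 counts on peaks. Levels are in CPM, the usual unit of counts relative to a library's total, with that total scaled by edgeR's TMM factors, whereas 3 counts, taken as the limit of detection, correspond to 0.143 to 0.189 CPM in RNA-seq and 0.063 to 0.111 CPM in ATAC-seq before that scaling. Intervals and limits of this kind cover counting error only. Carm1 had 44.5 to 103 CPM in TKO and 50.8 to 79.1 CPM in CARM1 knockout libraries. Counts over the whole gene do not check the label, since the exons removed from the Carm1L/L allele were not looked up. Nfib, whose coding change leaves the gene in place, had 420 to 580 CPM in TKO, 74.5 to 216 CPM in CARM1 knockout and 83.3 to 105 CPM in NFIB mutant libraries. The groups are called by their labels throughout. CARM1 knockout replicate 3 stood apart in RNA-seq: 12 neuroendocrine markers summed to 2049 CPM in it, within the 1801 to 4369 CPM of TKO, against 59.2 and 189 CPM in the other 2 CARM1 knockout libraries and 33.6 to 51.3 CPM in NFIB mutant libraries. Conversely, 6 fibroblast markers summed to 7.98 to 43.6 CPM in TKO, 14639 to 26489 CPM in CARM1 knockout and 9626 to 15739 CPM in NFIB mutant libraries. Reads outside annotated features made up 9.995 to 12.2% of those listed for TKO and 3.65 to 5.17% for the mutants.

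Promoter sequences were taken from RefSeq (GRCm38.p6), whose table held 4 of the 10 genes. They are printed because the start-site peaks that cover them closed to different degrees in the mutants. Each run goes from 250 bases before to 50 bases after the annotated start, in the direction of the gene, and capitals mark the GC box letters GGGCGG and the TATA letters TATAAA on either strand. The coordinates are chr19:47014431-47014730 (plus strand) for Ina, chr8:123411303-123411602 (plus) for Tubb3, chr1:66175079-66175378 (plus) for Map2 and chrX:143933170-143933469 (minus) for Dcx.
Ina: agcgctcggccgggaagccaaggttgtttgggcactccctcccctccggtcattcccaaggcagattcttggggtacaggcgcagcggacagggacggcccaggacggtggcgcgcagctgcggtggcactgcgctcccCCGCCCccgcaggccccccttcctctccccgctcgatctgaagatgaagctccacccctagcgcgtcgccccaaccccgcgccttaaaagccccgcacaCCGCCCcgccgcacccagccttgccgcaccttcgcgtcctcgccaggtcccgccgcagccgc
Tubb3: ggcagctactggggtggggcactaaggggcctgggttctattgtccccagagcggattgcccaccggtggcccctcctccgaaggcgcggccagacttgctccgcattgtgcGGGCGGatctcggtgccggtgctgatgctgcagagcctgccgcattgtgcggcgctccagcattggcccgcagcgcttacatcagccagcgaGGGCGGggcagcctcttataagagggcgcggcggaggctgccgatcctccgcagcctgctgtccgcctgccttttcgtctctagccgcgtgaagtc
Map2: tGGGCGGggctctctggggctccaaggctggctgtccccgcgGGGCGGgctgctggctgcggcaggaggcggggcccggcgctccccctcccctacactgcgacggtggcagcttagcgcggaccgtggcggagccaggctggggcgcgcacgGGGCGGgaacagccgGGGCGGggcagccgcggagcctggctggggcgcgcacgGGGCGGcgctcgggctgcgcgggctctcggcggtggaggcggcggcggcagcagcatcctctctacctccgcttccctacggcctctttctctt
Dcx: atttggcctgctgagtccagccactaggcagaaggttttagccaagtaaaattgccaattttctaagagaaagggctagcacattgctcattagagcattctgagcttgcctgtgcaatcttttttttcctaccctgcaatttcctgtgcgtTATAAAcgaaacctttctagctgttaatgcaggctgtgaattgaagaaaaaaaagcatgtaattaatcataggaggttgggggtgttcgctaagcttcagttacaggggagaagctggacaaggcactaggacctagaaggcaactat
The Map2 promoter held 5 GC boxes and was 77.7% G and C, the Ina promoter held 2 and was 71.7%, and the Tubb3 promoter held 2 and was 67.3%. The Dcx promoter had no GC box, 1 TATA match and 43% G and C. Over all 32851 promoters of the table the median was 52.7% G and C, 35.7% held the GC box letters and 13.6% the TATA letters. The start-site peaks contained the whole run for Ina, Tubb3 and Map2, and 273 of the 300 bases for Dcx.

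Peaks away from the start are shown for the same genes, 300 bases each, read from GRCm38.p6 on the plus strand. They were chosen after their letters and values had been seen. The first pair lies in introns of Map2 (chr1:66226699-66226998) and Dcx (chrX:143906634-143906933), and capitals mark CAGCTG, a form of the E-box that proneural factors bind.
Map2 intron: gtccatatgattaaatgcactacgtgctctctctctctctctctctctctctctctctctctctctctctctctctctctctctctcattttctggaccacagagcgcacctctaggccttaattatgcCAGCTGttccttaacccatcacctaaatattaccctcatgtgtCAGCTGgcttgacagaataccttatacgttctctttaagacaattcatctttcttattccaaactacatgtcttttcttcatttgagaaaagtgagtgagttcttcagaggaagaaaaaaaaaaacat
Dcx intron: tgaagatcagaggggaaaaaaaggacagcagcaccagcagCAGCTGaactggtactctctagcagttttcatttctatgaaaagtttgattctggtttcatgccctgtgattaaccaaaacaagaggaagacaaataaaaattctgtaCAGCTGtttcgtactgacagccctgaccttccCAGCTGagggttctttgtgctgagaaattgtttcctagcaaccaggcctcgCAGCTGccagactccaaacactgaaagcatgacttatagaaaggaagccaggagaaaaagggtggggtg
Another intronic peak of Dcx (chrX:143904671-143904970) held, in capitals, a core form of RE1, the element bound by the repressor REST, with a pair of free bases in its middle.
Dcx RE1 letters: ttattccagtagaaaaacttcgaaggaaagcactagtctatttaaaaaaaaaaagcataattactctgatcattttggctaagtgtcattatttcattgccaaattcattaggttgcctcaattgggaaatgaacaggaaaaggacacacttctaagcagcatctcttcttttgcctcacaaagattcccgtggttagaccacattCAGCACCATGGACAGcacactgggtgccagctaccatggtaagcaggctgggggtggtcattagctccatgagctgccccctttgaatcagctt
The last run (chr8:123422185-123422484) comes from a peak that overlaps the last exon of Tubb3 and reaches past the gene's end, where the run lies. Here capitals mark the AP-1 letters TGANTCA.
Tubb3 end: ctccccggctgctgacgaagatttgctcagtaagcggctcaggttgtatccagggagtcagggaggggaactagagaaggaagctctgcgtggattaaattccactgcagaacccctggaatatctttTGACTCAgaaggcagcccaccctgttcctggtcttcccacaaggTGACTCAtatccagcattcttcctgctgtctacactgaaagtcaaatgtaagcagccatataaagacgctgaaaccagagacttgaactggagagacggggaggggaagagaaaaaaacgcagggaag
All motifs were searched on both strands, and CAGCTG and TGANTCA read the same on both apart from the base N. In windows of 300 bases around the middle of each peak, 22.7% of all 111116 tested peaks held CAGCTG, 23.8% held TGANTCA and 0.0216% the RE1 letters. Among the 26 peaks of Ina, Tubb3, Map2 and Dcx, 8 held CAGCTG and 1 held TGANTCA in that window. Of the 26, 23 were called lower in each mutant, and these 23 included all 8 and the 1. Among all tested peaks called lower in each mutant, 28.1% held CAGCTG and 7.89% held TGANTCA. The printed Tubb3 and RE1 matches lie outside the middle window of their peaks. Of 2 further letter sets, CAGATG, another E-box form, was in 8 of the 26 windows against 25.4% of all. TGGCNNNNNGCCA, a form of the NFI site, was in 0 of 26 against 2.20%, and 26 windows are too few to tell 0 from shares this low. Among all tested peaks called lower in each mutant, 25.9% held CAGATG and 4.18% the NFI letters. Among those called higher in each, these shares were 27.3% and 0.992%. Of the 8 windows with CAGATG, 6 were in peaks called lower in each mutant.

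In TKO tumors 9 of the 10 genes were well expressed, and 8 fell in each mutant. Per kb of exon, TKO levels ran from 111 ± 49.7 CPM per kb (SD, n = 3) for Tubb3 and 52.3 ± 21.3 for Ina to 12.8 ± 9.19 for Nefl. Between these came Gap43 (29.3 ± 22.7 CPM per kb), Nefh (28.0 ± 8.08), Dcx (26.4 ± 22.8), Mapt (22.9 ± 22.8), Map2 (18.2 ± 5.80) and Nefm (13.2 ± 9.18), and neighbours from Gap43 to Nefl in this order differed by less than the larger of their SDs. Tubb3 exceeded Ina, and Ina exceeded Gap43, by more than either SD. Stmn2 was far below at 0.524 ± 0.846 CPM per kb. In the mutants Tubb3 remained the highest per kb, with 45.8 ± 11.6 CPM per kb in CARM1 knockout tumors against 30.7 ± 4.95 in the NFIB mutant, and Gap43 was second with 15.1 ± 20.03 and 10.2 ± 11.1. Every other member had a mean of at most 3.94 CPM per kb in either mutant.

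Of the 9 members tested, 8 were called lower in each mutant (edgeR's quasi-likelihood test, Benjamini-Hochberg adjusted p under 0.1, log2 fold change of 0.8 or more in size). Over all 15514 genes tested, 18.3% were called lower and 20.5% higher in CARM1 knockout, and 23.5% lower and 22.3% higher in NFIB mutant tumors. The members' median log2 fold change was −4.77 and −6.93, both with the fitted values and with genes near 0 set to their bound, against −0.03 and −0.05 over all genes. In 8 members all 6 mutant libraries lay below all 3 TKO libraries, as they did in 23.3% of all genes, and they lay above in 0 members against 22.3% of all genes. The comparisons share their TKO libraries and are not independent. In bulk tumor cells, fewer cells that express a gene and less RNA per cell cannot be told apart. The summed fibroblast markers were higher than TKO in all 6 mutant libraries and the summed neuroendocrine markers lower in 5. In CARM1 knockout replicate 3 the neuroendocrine sum stayed within the TKO range. The median of these markers there was 105 CPM, below the TKO medians of 131 to 269 CPM. The members summed to 237 CPM in that library against 960.3 to 2199.9 CPM in TKO. The part of either set of markers in the falls was not tested. Scaling by library totals alone moved the median of all genes to −0.30 and −0.37 and the calls over all genes from 2836 lower and 3185 higher to 3848 and 2511 in CARM1 knockout, and from 3640 and 3459 to 4809 and 2691 in NFIB mutant tumors. The same 8 members were called under it.

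**Figure D1:**
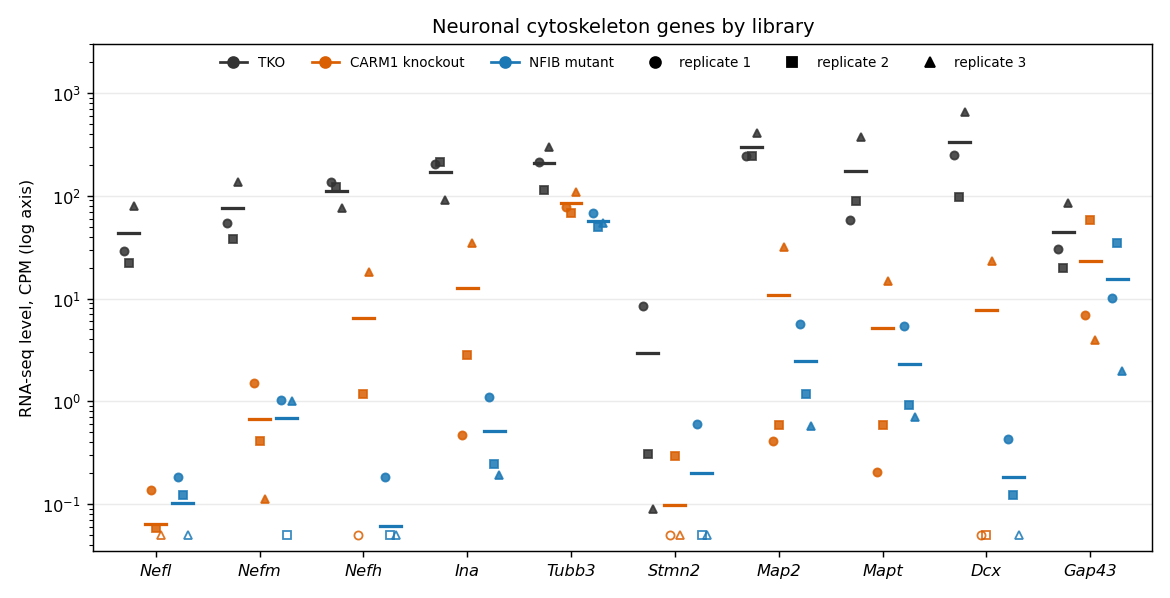
RNA-seq level of each gene in every library, in CPM on a log axis. Points are libraries (circle, square and triangle for replicates 1, 2 and 3), bars are group means, and open points stand for levels under 0.05 CPM. For 8 genes all mutant points lie below the TKO points, Stmn2 and Gap43 overlap, and CARM1 knockout replicate 3 is above the other mutant libraries for Nefh, Ina, Map2, Mapt and Dcx.

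The neurofilament light and medium chains were almost gone from all 6 mutant libraries. Nefl (chr14:68083863-68089095, plus strand) had 28.8, 22.1 and 78.9 CPM in TKO replicates 1, 2 and 3. It had 0.136, 0.0583 and 0 CPM in CARM1 knockout and 0.182, 0.123 and 0 CPM in NFIB mutant libraries, none with more than 3 counts. Against 3 counts per library it was thus at least 237-fold lower in CARM1 knockout and at least 233-fold in the NFIB mutant (adjusted p = 0.00186 and 0.0016). Without TKO replicate 3, the highest library, these bounds were 139.7 and 137. Nefm (chr14:68082590-68124846, minus strand) had 54.3, 38.2 and 137 CPM in TKO. In CARM1 knockout libraries 1.49, 0.408 and 0.112 CPM remained, and in NFIB mutant libraries 1.03, 0 and 1.02 CPM. The groups did not overlap, and the log2 fold changes were −6.84 ± 1.38 (SE, adjusted p = 0.00896) and −6.79 ± 1.38 (adjusted p = 0.00721). The ratio of means was 114 and 112, with 1 library left out 68.9 (TKO replicate 3) to 294 (CARM1 knockout replicate 1) in CARM1 knockout and 67.7 (TKO replicate 3) to 151 in NFIB mutant tumors. The annotated span of Nefm covers all of Nefl on the other strand, and the first exon of Nefl overlaps the last exon of Nefm. The deposited counts set ambiguous reads apart, so reads over both genes may be missing from each unless counting used the strand. Whether it did is not given in the sources used here.

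Nefh and Ina behaved differently from the light and medium chains in 1 library. Nefh (chr11:4938754-4948064, minus strand) had 137, 123 and 75.5 CPM in TKO. It had 0, 1.17 and 18.3 CPM in CARM1 knockout and 0.182, 0 and 0 CPM in NFIB mutant libraries. CARM1 knockout replicate 3 thus kept 16.3% of the TKO mean, whereas Nefm was at 0.147% and Nefl at 0 in the same library. The log2 fold change of Nefh was −4.10 ± 1.58 in CARM1 knockout (adjusted p = 0.0769), and −7.48 without replicate 3 (adjusted p = 0.00932), where the ratio of means rose from 17.3 to 192. In NFIB mutant tumors it was at least 601-fold lower (adjusted p = 0.00876). Ina (chr19:47014698-47025327, plus strand) had 204, 214 and 90.0 CPM in TKO, 0.475, 2.80 and 35.1 CPM in CARM1 knockout and 1.09, 0.247 and 0.191 CPM in NFIB mutant libraries. Again the groups did not overlap and replicate 3 was the highest mutant library, at 20.7% of the TKO mean. The log2 fold changes were −3.73 ± 1.36 (adjusted p = 0.0663, and 0.00628 without CARM1 knockout replicate 3) and −8.35 ± 1.73 (adjusted p = 0.00785). The ratio of means in CARM1 knockout was 13.3, and 103 without that library. In NFIB mutant tumors it was 332, and 775 without NFIB mutant replicate 1. Among TKO libraries, replicate 3 was the lowest for Nefh and Ina but the highest for Nefl and Nefm. Ina shares its locus with Nt5c2 on the other strand.

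Tubb3, a beta-tubulin of neurons, fell the least of the called members. Tubb3 (chr8:123411424-123422015, plus strand) had 213, 113 and 298 CPM in TKO libraries. It had 78.4, 68.2 and 109.9 CPM in CARM1 knockout and 67.6, 49.6 and 54.8 CPM in NFIB mutant libraries. The highest mutant library lay just under the lowest TKO library. The log2 fold change was −1.28 ± 0.35 (adjusted p = 0.0263) in CARM1 knockout and −1.86 ± 0.36 (adjusted p = 0.0059) in NFIB mutant tumors. The protein-coding gene Gm20388 overlaps Tubb3 on the same strand, and what this does to the counts of Tubb3 was not tested. Stmn2 (chr3:8509360-8561606, plus strand), the stathmin of growing axons, was not tested because too few libraries had enough counts. It had 8.41, 0.306 and 0.0886 CPM in TKO, 0, 0.292 and 0 CPM in CARM1 knockout and 0.608, 0 and 0 CPM in NFIB mutant libraries. Only TKO replicate 1 held more than 10 counts of it, and the groups overlapped.

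RNA of the genes for proteins that bind along microtubules fell strongly, with CARM1 knockout replicate 3 again in between. Map2 (chr1:66175273-66442583, plus strand) had 246, 243 and 409.8 CPM in TKO, 0.407, 0.583 and 31.8 CPM in CARM1 knockout and 5.59, 1.17 and 0.572 CPM in NFIB mutant libraries. Replicate 3 stood at 10.6% of the TKO mean and the other 2 CARM1 knockout libraries at 0.136 and 0.195%. The log2 fold changes were −4.77 ± 1.66 (adjusted p = 0.0572) and −6.93 ± 1.85 (adjusted p = 0.02). The ratio of means in CARM1 knockout went from 27.4 to 605 without replicate 3 (adjusted p = 0.00332). In NFIB mutant tumors it went from 123 to 344 without replicate 1. Mapt (chr11:104231390-104332090, plus strand) had 57.9, 89.2 and 370.2 CPM in TKO, 0.203, 0.583 and 14.8 CPM in CARM1 knockout and 5.35, 0.925 and 0.699 CPM in NFIB mutant libraries. No mutant library reached the lowest TKO library, although TKO libraries differed 6.39-fold among themselves. Mapt had log2 fold changes of −5.05 ± 1.69 (adjusted p = 0.0502) and −6.21 ± 1.79 (adjusted p = 0.0264). The ratio of means in CARM1 knockout was 33.2, 438 without CARM1 knockout replicate 3 and 14.2 without TKO replicate 3, where the adjusted p of 0.122 ended the call. In NFIB mutant tumors it was 74.2, 31.6 without TKO replicate 3 and 212 without NFIB mutant replicate 1.

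Dcx, the doublecortin of migrating young neurons, had the highest mean CPM of the members in TKO. Dcx (chrX:143855842-143933311, minus strand) had 249, 97.6 and 656 CPM in TKO libraries. It had 0, 0 and 23.4 CPM in CARM1 knockout and 0.426, 0.123 and 0 CPM in NFIB mutant libraries. Only CARM1 knockout replicate 3 held more than 7 counts among the mutants. The log2 fold changes were −5.42 ± 2.04 (adjusted p = 0.0724) and −10.77 ± 2.71 (adjusted p = 0.016). Without CARM1 knockout replicate 3 the gene was at 0 in both remaining libraries and at least 1766-fold lower (adjusted p = 0.0048). With it the ratio of means was 42.9, and 22.2 without TKO replicate 3 (adjusted p = 0.151). In NFIB mutant tumors the ratio was 1826, and 947 without TKO replicate 3. Gap43 (chr16:42248442-42340651, minus strand) was the 1 tested member that was not called in either comparison. It had 30.2, 19.7 and 84.1 CPM in TKO, 6.91, 58.2 and 3.93 CPM in CARM1 knockout and 10.03, 34.5 and 1.97 CPM in NFIB mutant libraries. Replicate 2 was the highest library of both mutants and overlapped TKO. The log2 fold changes were −0.96 ± 1.24 (adjusted p = 0.568) and −1.53 ± 1.26 (adjusted p = 0.347). The ratio of means in CARM1 knockout was 1.94, 1.08 without TKO replicate 3 and 8.24 without CARM1 knockout replicate 2. For the NFIB mutant the ratio was 2.88, 1.61 without TKO replicate 3 and 7.45 without NFIB mutant replicate 2.

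The CARM1 knockout calls of these genes depended on which libraries entered. All 8 were called without CARM1 knockout replicate 3, but 5 without replicate 1, 3 without replicate 2, 5 without TKO replicate 1, 6 without TKO replicate 2 and 6 without TKO replicate 3. Nefl, Nefm and Tubb3 were called in every fit that tested them, whereas Nefh, Ina, Map2, Mapt and Dcx lost the call in some. In NFIB mutant tumors all 8 members were called whichever library was left out.

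Between the 2 mutants, 0 of the 9 tested members were called, as were 0% of all genes. At an unadjusted p under 0.05 there were 2 members, and DESeq2 called 1, Nefh, which was higher in CARM1 knockout (adjusted p = 0.0272). The edgeR log2 fold changes of CARM1 knockout over NFIB mutant were 6.57 ± 2.09 for Nefh, 5.35 ± 2.36 for Dcx and 4.62 ± 1.51 for Ina, with adjusted p of 0.517, 0.551 and 0.524. Without CARM1 knockout replicate 3 they were 3.16 for Nefh, −4.82 for Dcx and 1.70 for Ina, so that of Dcx changed sign and the other two kept theirs. Tubb3 differed by 0.58 ± 0.35 (adjusted p = 0.66) and Nefm by −0.05 ± 1.19 (adjusted p = 0.998).

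The profile of the members over the 9 RNA-seq libraries was summarised as the mean of the log2 CPM of the 9 tested members, each centred on its own mean. Mapt lay nearest to this mean profile, with a root mean square difference of 0.94 on the log2 scale, followed by Map2 (1.06), Ina (1.26), Nefl (1.38), Nefh (1.66), Nefm (1.76), Dcx (2.08), Tubb3 (2.33) and Gap43 (2.68). The genes outside the list that lay nearest were Pld5 (0.44), Sox1ot (0.47), Rims4 (0.50), Adra2c (0.50) and Frrs1l (0.51). All of these 5 were at 0 in CARM1 knockout replicates 1 and 2 and present in replicate 3, as Dcx was. The profile is dominated by the split between TKO (3.59 to 4.79 on the centred log2 scale) and the mutants. NFIB mutant libraries lay at −3.27 to −1.54, and CARM1 knockout replicates 1 and 2 at −2.92 and −2.02. CARM1 knockout replicate 3 lay in between, at 0.22.

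Within the intermediate filament family the make-up turned over. Of the CPM per kb summed over Nefl, Nefm, Nefh, Ina, Prph, Nes, Vim, Krt8, Krt18, Krt19, Gfap, Des and Synm, the 4 neurofilament members made up 59.1, 84.4 and 70.1% in TKO. They made up 0.0892, 0.187 and 2.001% in CARM1 knockout and 0.0463, 0.0129 and 0.0174% in NFIB mutant libraries. Ina was the largest of the 4 in all 3 TKO libraries, with 20.8 to 50.8% of the family. Vimentin (Vim), the filament of mesenchymal cells, took 6.63 to 14.2% in TKO and 42.7 to 95.8% in the mutants. NFIB mutant replicate 1 and CARM1 knockout replicate 3, which had the lowest vimentin shares among the mutants, carried keratins. In the first of them Krt19, Krt8 and Krt18 had 29.1, 17.0 and 9.64% of the family, together more than the 42.7% of vimentin, and in the second 0.602, 15.4 and 11.2%. Among beta-tubulins Tubb3 went from 5.55 to 14.7% of the family in TKO to 1.70 to 5.03% in the mutants. Tubb6 went from 1.74 to 2.66% up to 17.0 to 23.9%, while the widely expressed Tubb5 stayed the largest share at 47.9 to 73.7% in all libraries.

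**Figure D2:**
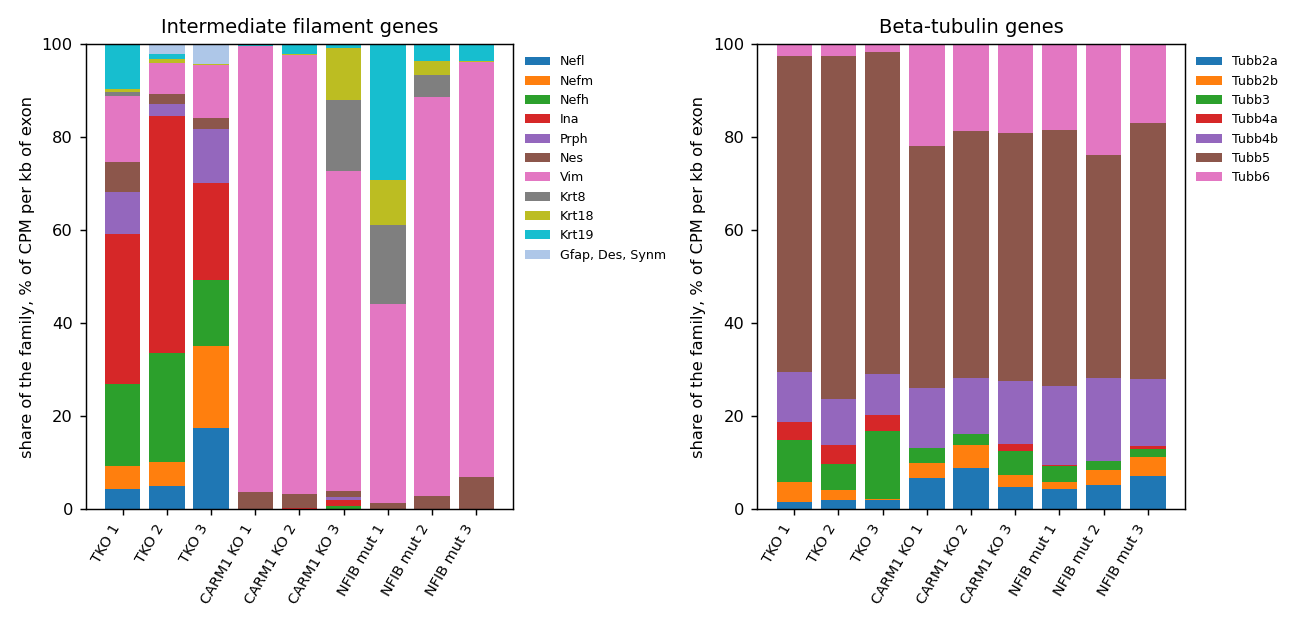
Share of each gene in the summed CPM per kb of exon of its family, in percent, with 1 bar per library. The left panel holds 13 intermediate filament genes and the right panel 7 beta-tubulin genes. Neurofilament genes make up more than 59% of the first family in TKO and at most 2.001% in the mutants, where vimentin is the largest single share in all 6 libraries.

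Among 30 other neuronal cytoskeleton genes, 12 were called lower and 2 higher in CARM1 knockout, and 19 lower and 4 higher in NFIB mutant tumors. Without CARM1 knockout replicate 3 the first count was 20. Their median log2 fold changes were −2.44 and −3.42. Over all genes tested, 18.3% were called lower and 20.5% higher in CARM1 knockout, and 23.5% lower and 22.3% higher in NFIB mutant tumors. Dpysl4, a collapsin response mediator, had 32.8 to 51.8 CPM in TKO, at most 1.40 CPM in CARM1 knockout and at most 0.0608 CPM in NFIB mutant libraries. The doublecortin-like kinase Dclk2 had 241 to 463 CPM in TKO, 2.78 to 44.0 CPM in CARM1 knockout and 1.03 to 2.73 CPM in NFIB mutant libraries. The kinesin motor Kif5c had 158 to 318 CPM in TKO and log2 fold changes of −3.50 (adjusted p = 0.064) and −7.66 (adjusted p = 0.00734). Rises were seen for Tubb2a, a beta-tubulin (2.11 and 1.88 on the log2 scale), and for Map1a, a microtubule-associated protein (2.15 and 1.77). In the list as a whole, 16 genes were not called in CARM1 knockout tumors and 7 were not called in NFIB mutant ones.

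Of 23 cytoskeleton genes of other cells, 22 were tested, and 3 were called lower and 6 higher in CARM1 knockout and 4 lower and 10 higher in NFIB mutant tumors. Their median log2 fold changes were 0.01 and 0.60. The shares of all genes were 18.3% lower and 20.5% higher in CARM1 knockout, and 23.5% lower and 22.3% higher in NFIB mutant tumors. Vim had 41.0 to 131 CPM in TKO, 2264 to 2973 CPM in CARM1 knockout and 2697 to 5712 CPM in NFIB mutant libraries. Tubb6 rose by 3.30 and 3.31 and the nuclear lamin gene Lmna by 2.63 and 3.22 on the log2 scale. Stmn1, the stathmin of dividing cells, had 901 to 1119.8 CPM in TKO and log2 fold changes of −1.80 (adjusted p = 0.00308) and −2.10 (adjusted p = 0.00145). Marcksl1, a membrane-bound actin regulator, changed by −1.47 and −1.78, and the filament gene Synm by −3.92 and −2.65. Both calls of Synm ended without TKO replicate 3, at −2.76 and −1.49, and that in NFIB mutant tumors (adjusted p = 0.093) also ended without TKO replicate 2, any CARM1 knockout replicate or NFIB mutant replicate 2 or 3.

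Markers of other cells were set beside the members, and the shares called over all genes are those given above. Of 12 neuroendocrine markers, 2 were called lower in CARM1 knockout, 11 without its replicate 3, and 11 in NFIB mutant tumors. The 2 called in both were Uchl1, a ubiquitin hydrolase of neuroendocrine cells, with 387 to 425 CPM in TKO, 24.1 to 181 CPM in CARM1 knockout and 3.37 to 17.9 CPM in NFIB mutant libraries, and the factor Neurod1, with 1.78 to 9.89 CPM in TKO and 0 in all 6 mutant libraries. The CARM1 knockout call of Uchl1 ended without any 1 of the TKO replicates and without CARM1 knockout replicate 1 or 2 (adjusted p = 0.105 to 0.159). Of 8 neuron markers 7 were tested and 3 called lower in each. The neuronal genes Rbfox3 (13.9 to 40.2 CPM) and Snap25 (104 to 479.9 CPM) were present in TKO. Of the genes of excitatory neurons, Slc17a7 had at most 0.865 CPM there and Slc17a6 a mean of 4.05 CPM. Of those of inhibitory neurons, Gad2 was at 0 and Gad1 had a mean of 8.74 CPM. Syt1 and Slc6a2 had TKO means of 140 and 1.85 CPM. All 6 fibroblast markers were called higher in CARM1 knockout tumors, 5 were in NFIB mutant ones, and Col1a1 had at most 3.85 CPM in TKO and at least 2372 CPM in the mutants. Of 6 smooth muscle and myofibroblast markers 5 and 4 were called higher, with sums of 3.99 to 9.85 CPM in TKO, 529 to 1969 CPM in CARM1 knockout and 125 to 596 CPM in NFIB mutant libraries. Of 8 leukocyte markers 6 and 2 were called higher (3 in CARM1 knockout without its replicate 3), with sums of 3.63 to 54.3, 179.7 to 2670.1 and 26.8 to 526 CPM. The T cell gene Cd3e was at 0 in all libraries. Of 8 lung epithelium markers 1 was called lower in each mutant (2 in CARM1 knockout without its replicate 3) and 0 and 3 were called higher, with sums of 14.2 to 45.9, 2.37 to 422 and 0.889 to 2212 CPM. The highest of these was NFIB mutant replicate 1, against 86.2 and 0.889 CPM in replicates 2 and 3. That library was also the highest of its group for every member but Gap43, though it held only 3 counts each of Nefl and Nefh. Endothelial sums stayed at or under 74.0 CPM in all libraries (1 marker of 6 called higher in each mutant and 0 and 1 lower). Schwann cell markers summed to 93.9 to 119, 13.8 to 91.6 and 42.9 to 81.6 CPM (0 higher in either, 2 and 1 of 6 lower), with the defining Sox10 at most at 0.266 CPM. What part such cells have in the members' values was not tested.

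Chromatin at the transcript starts followed the RNA in direction. The start-site peak of a gene is the strongest peak within 1000 bp of any of its annotated starts, and 9 members had one, all but Stmn2. All 9 were called lower in each mutant (edgeR, adjusted p under 0.1, log2 fold change of 0.5 or more in size). Among the start-site peaks of all tested genes, 36.5% were called lower in CARM1 knockout tumors, and the share was 42.5% for the NFIB mutant. Over all 111116 tested peaks 32.4% were called lower and 38.7% higher in CARM1 knockout, and 34% lower and 39.3% higher in NFIB mutant tumors. Scaling by library totals moved the median of all peaks from 0.22 to 0.79 in either comparison, and the calls from 36014 lower and 42971 higher to 27241 and 52589 in CARM1 knockout.

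The peak over the Nefl start (chr14:68083431-68085371) was at a like level in all 6 mutant libraries. It had 44.8, 40.9 and 30.5 CPM in TKO, 2.04, 1.90 and 1.91 CPM in CARM1 knockout and 2.87, 1.97 and 2.02 CPM in NFIB mutant libraries. All mutant libraries were within 1.90 to 2.87 CPM, and the log2 fold changes were −4.31 ± 0.28 (adjusted p = 7.38e-06) and −4.08 ± 0.27 (adjusted p = 6.71e-06). This peak also lies in the window of Nefm. The Nefm start (chr14:68123129-68125429) had 41.1, 38.5 and 30.8 CPM in TKO, 5.27, 3.46 and 3.60 CPM in CARM1 knockout and 2.78, 2.12 and 1.55 CPM in NFIB mutant libraries. At the Nefh start (chr11:4946032-4948932) TKO had 60.1, 57.0 and 55.0 CPM, CARM1 knockout 4.62, 7.57 and 14.03 CPM and NFIB mutant 3.14, 3.25 and 3.98 CPM. CARM1 knockout replicate 3 was the highest mutant library at the starts of Nefh, Ina, Map2, Tubb3 and Mapt, but not at those of Nefl, Nefm, Dcx and Gap43. The Ina start (chr19:47013726-47016334) had 60.1, 54.1 and 26.9 CPM in TKO, 3.72, 7.39 and 13.1 CPM in CARM1 knockout and 3.50, 2.33 and 1.94 CPM in NFIB mutant libraries. The Map2 start (chr1:66174670-66176702) had 36.6, 40.0 and 39.3 CPM in TKO, 3.26, 3.48 and 9.29 CPM in CARM1 knockout and 5.95, 2.07 and 1.88 CPM in NFIB mutant libraries. For Nefm, Nefh, Ina and Map2 the log2 fold changes ran from −3.16 (Nefm) to −2.54 (Ina) in CARM1 knockout and from −4.19 (Ina) to −3.56 (Map2) in NFIB mutant tumors, with adjusted p of at most 0.000967.

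Start sites of Tubb3, Mapt and Gap43 stayed partly open. Tubb3 (chr8:123408793-123413351) had 79.5, 73.0 and 64.7 CPM in TKO, 28.2, 32.7 and 45.7 CPM in CARM1 knockout and 27.9, 35.5 and 28.7 CPM in NFIB mutant libraries, with log2 fold changes of −1.03 ± 0.19 and −1.24 ± 0.19 (adjusted p = 0.00117 and 0.000392). With library totals as the scaling, the first was −0.43 and no longer called. Mapt (chr11:104230353-104233325) had 36.8, 29.9 and 48.0 CPM in TKO, 11.99, 12.8 and 17.0 CPM in CARM1 knockout and 13.4, 10.3 and 13.9 CPM in NFIB mutant libraries. Its log2 fold changes were −1.46 ± 0.24 (adjusted p = 0.000564) and −1.61 ± 0.24 (adjusted p = 0.000298), and the groups did not overlap. Gap43 (chr16:42340102-42340954) had 4.69, 4.85 and 10.99 CPM in TKO, 2.14, 4.99 and 2.93 CPM in CARM1 knockout and 3.44, 2.98 and 2.98 CPM in NFIB mutant libraries, and is the 1 start-site peak where the groups overlap. Its log2 fold changes were −1.02 ± 0.47 (adjusted p = 0.0733) and −1.12 ± 0.47 (adjusted p = 0.0516). Both calls ended without TKO replicate 3, at −0.50 and −0.60, and under each of the 3 other scalings, and the first also ended with only the 2 groups compared and, separately, without CARM1 knockout replicate 1, at −0.78, or replicate 3, at −0.93 (adjusted p = 0.168), and the second without NFIB mutant replicate 2 or 3, at −1.09 and −1.08. Dcx (chrX:143932532-143933442), with the TATA letters printed above, was the weakest of the 9 start-site peaks in TKO, with 4.75, 2.53 and 8.20 CPM. It had 0.129, 0.173 and 0.145 CPM in CARM1 knockout and 0.209, 0 and 0.0785 CPM in NFIB mutant libraries. The log2 fold changes were −5.07 ± 0.85 (adjusted p = 0.000665) and −5.77 ± 0.90 (adjusted p = 0.000394).

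**Figure D3:**
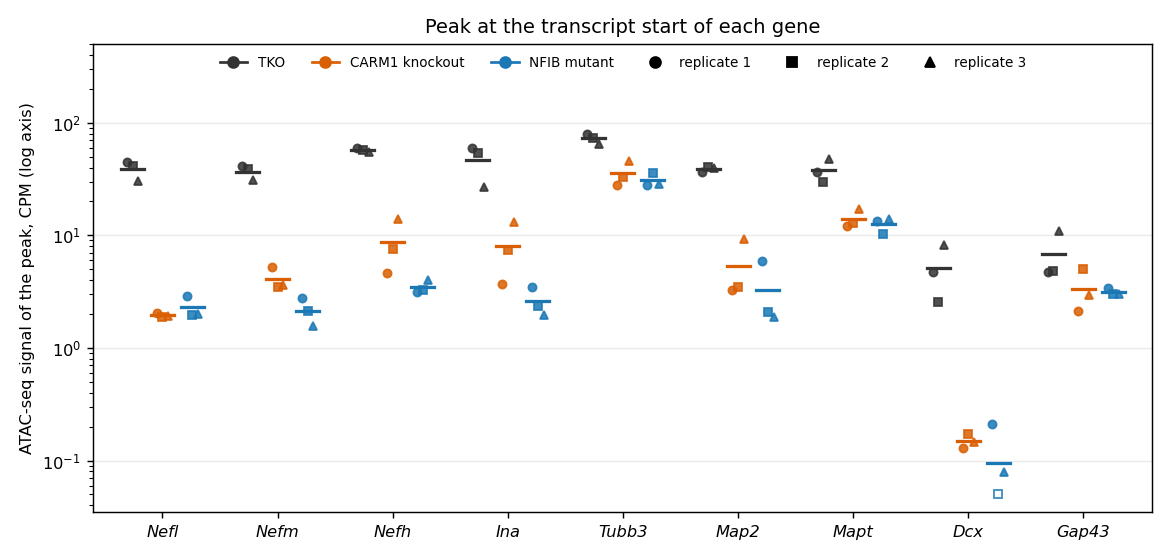
ATAC-seq signal of the start-site peak of 9 genes in every library, in CPM on a log axis. Points are libraries (circle, square and triangle for replicates 1, 2 and 3), bars are group means, and open points stand for levels under 0.05 CPM. All mutant points lie below the TKO points except for Gap43, and Tubb3 keeps the highest signal in the mutants.

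Over all 60 peaks of the 10 genes, 41 were called lower and 8 higher in CARM1 knockout, and 43 lower and 11 higher in NFIB mutant tumors. The median log2 fold changes were −2.80 and −2.76, against 0.22 over all peaks. In 36 of the 60 peaks all 6 mutant libraries lay below TKO and in 6 above, against 28.6% and 33.1% of all peaks. Without CARM1 knockout replicate 3, 49 of the 60 were called in CARM1 knockout, the same number as with it. Between the 2 mutants edgeR called 0 of the 60, as it did 0% of all peaks, with 5 at an unadjusted p under 0.05 and 0 by DESeq2.

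At Map2 and Dcx every peak of the window fell. All 8 peaks of Map2 and all 10 of Dcx were called lower in each mutant, and in all 18 the mutant libraries lay below all TKO libraries. The medians were −4.73 and −5.01 for Map2, and −4.62 and −4.98 for Dcx. The Map2 intronic peak with the printed CAGCTG letters (chr1:66226216-66227455) had 19.7, 11.1 and 2.45 CPM in TKO, 0.310, 0.192 and 0.193 CPM in CARM1 knockout and 0.329, 0.120 and 0.0981 CPM in NFIB mutant libraries. The largest mean fall in Map2 was at chr1:66211265-66211736, another intronic peak, with 3.12, 2.38 and 0.380 CPM in TKO and at most 0.149 CPM in a mutant library. The Dcx intronic peak with 4 CAGCTG matches (chrX:143906279-143907400) had 9.56, 5.93 and 12.2 CPM in TKO, 0.258, 0.307 and 0.871 CPM in CARM1 knockout and 0.389, 0.385 and 0.137 CPM in NFIB mutant libraries. The Dcx peak with the RE1 letters (chrX:143904032-143904970) had 8.70, 6.09 and 1.69 CPM in TKO and at most 0.290 CPM in a mutant library. TKO replicate 3 was the lowest TKO library at this peak and at both Map2 peaks, but the highest at the start-site peak and the other printed intronic peak of Dcx.

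At the neurofilament loci falls were also called away from the starts, some without separation of the groups. Nefl had 2 of 2 peaks called lower in each mutant, Nefm 4 of 5, Ina 4 of 5, and Nefh 1 of 2 in CARM1 knockout and 2 of 2 in NFIB mutant tumors. The upstream Nefl peak (chr14:68078727-68079265) had 7.62, 4.02 and 0.169 CPM in TKO and 0.157 to 0.457 CPM in the mutants. At an upstream Ina peak (chr19:47010687-47011091) TKO had 2.30, 3.52 and 0.0423 CPM, the last below every mutant library. Groups also overlapped at the Nefh peak away from the start. The remaining Nefm peak, a weak intronic one (chr14:68100774-68101202), had 0.191, 0.309 and 0.338 CPM in TKO, 0.310, 0.422 and 0.943 CPM in CARM1 knockout and 0.448, 1.03 and 3.06 CPM in NFIB mutant libraries, and was called higher in the latter (2.44, adjusted p = 0.0159). The largest fall of Ina was in a peak about 3.5 kb past its start (chr19:47017659-47018665), with 7.01, 13.5 and 0.592 CPM in TKO, 0.491, 0.2496 and 0.508 CPM in CARM1 knockout and 0.389, 0.241 and 0.118 CPM in NFIB mutant libraries. There TKO replicate 3 was barely above the mutants. At the other end of Ina, a weak peak over an exon (chr19:47024856-47025404) rose from 0.765, 0.309 and 0.211 CPM in TKO to 1.83, 1.84 and 2.59 CPM in CARM1 knockout and 1.05, 2.45 and 2.96 CPM in NFIB mutant libraries (log2 fold changes of 2.26 and 2.31, adjusted p = 0.0076 and 0.00647). Of the 3 Tubb3 peaks, 1 was lower, 1 was not called, and that at the gene's end with the AP-1 letters (chr8:123421975-123423083) rose from 5.99, 3.55 and 5.24 CPM to 10.2, 9.16 and 10.4 CPM and to 6.93, 7.07 and 11.4 CPM (log2 fold changes of 1.01 and 0.78, adjusted p = 0.0227 and 0.0608). The second call ended without TKO replicate 2 (0.59) and without NFIB mutant replicate 3 (0.51). The only Stmn2 peak, in an intron (chr3:8510946-8511755), had 3.57, 2.10 and 3.17 CPM in TKO, 0.646, 1.08 and 1.57 CPM in CARM1 knockout and 1.52, 0.337 and 1.88 CPM in NFIB mutant libraries. It was called lower in each (−1.42 ± 0.62 and −1.24 ± 0.62, adjusted p = 0.0645 and 0.0972), and both calls ended under each of the 3 other scalings, with library totals at −0.85 and −0.67, and without TKO replicate 1 or 3.

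Mapt and Gap43 had peaks that moved in both directions, as Ina and Tubb3 did. Of 13 Mapt peaks, 5 were called lower and 2 higher in CARM1 knockout, and 5 lower and 5 higher in NFIB mutant tumors. Over all tested peaks 32.4% were called lower and 38.7% higher in CARM1 knockout, and 34% lower and 39.3% higher in NFIB mutant tumors. The summed signal over its 13 peaks was 59.8 to 99.0 CPM in TKO, 56.9 to 66.1 CPM in CARM1 knockout and 69.8 to 76.6 CPM in NFIB mutant libraries. The largest rise was in an intronic peak (chr11:104303174-104304341), with 1.28, 1.42 and 1.69 CPM in TKO, 18.2, 14.6 and 17.0 CPM in CARM1 knockout and 17.5, 28.3 and 18.9 CPM in NFIB mutant libraries. Every mutant library was far above every TKO library, and the log2 fold changes were 3.51 ± 0.29 (adjusted p = 1.77e-05) and 3.88 ± 0.29 (adjusted p = 1.06e-05). The largest fall was in another intronic peak (chr11:104271896-104272870), from 3.70, 5.87 and 16.6 CPM in TKO to 0.491, 0.576 and 0.508 CPM in CARM1 knockout and 1.17, 0.866 and 1.001 CPM in NFIB mutant libraries. Mapt overlaps the antisense gene Gm11659, and Map2 the antisense gene Gm10558.

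Of 12 Gap43 peaks, 6 were called lower and 4 higher in CARM1 knockout, and 7 lower and 3 higher in NFIB mutant tumors. The intronic peak with the largest fall (chr16:42254939-42256277) had 23.4, 35.5 and 11.2 CPM in TKO, 0.491, 0.192 and 3.10 CPM in CARM1 knockout and 0.508, 0.192 and 0.334 CPM in NFIB mutant libraries, with log2 fold changes of −4.22 ± 0.90 and −6.09 ± 1.002 (adjusted p = 0.00236 and 0.000529). CARM1 knockout replicate 3 was the highest mutant library, and without it the first value was −6.10. A second intronic peak, chosen after its values were seen (chr16:42269165-42269974), went from 8.56 to 10.01 CPM in TKO to at most 0.557 CPM in a mutant library. The peak with the largest rise (chr16:42298004-42298479) had 0.159, 0.0618 and 0.423 CPM in TKO, 2.40, 2.84 and 0.605 CPM in CARM1 knockout and 1.64, 1.44 and 1.55 CPM in NFIB mutant libraries. Gap43, whose RNA was not called, thus had 6 and 7 peaks that fell and 4 and 3 that rose. How its RNA and its peaks relate was not tested.

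**Figure D4:**
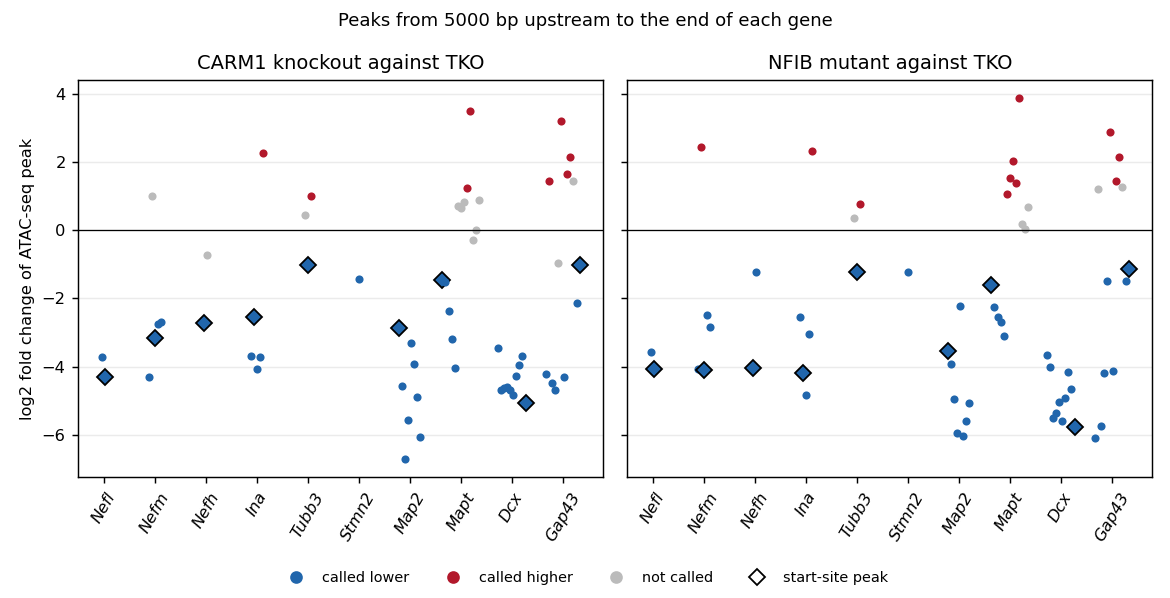
Log2 fold change of each ATAC-seq peak from 5000 bp upstream to the end of each gene, for CARM1 knockout (left) and NFIB mutant tumors (right) against TKO. Each point is 1 peak, ordered within its gene along the chromosome, diamonds are start-site peaks, and blue, red and grey mark peaks called lower, called higher and not called. All peaks of Map2 and Dcx fall below 0, and Mapt and Gap43 have peaks called on both sides.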

How the data were processed

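RNA-seq and ATAC-seq libraries of 9 mouse samples each, 3 per genotype, were analysed, grouped by their labels. The authors deposited counts per gene, made by their methods with Trim Galore, HISAT2 and htseq-count on mm10, and counts per peak, for which the file header names featureCounts 1.6.3 whereas the methods name bedtools multicov. The ATAC-seq reads were aligned with Bowtie2, duplicates were removed with Picard, and MACS2 is named for peaks in the methods (Genrich in the submitters' processing notes, with build GRCm38). The peak set is common to all libraries. The deposited RNA-seq table also held 5 summary rows, which were left out of all totals. Gene positions came from GENCODE M21 (GRCm38).

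Counts were filtered with filterByExpr, scaled by TMM and tested across all genes or peaks and all 3 groups with edgeR 4.0.16 (quasi-likelihood test, limma 3.58.1, R 4.3.3) with Benjamini-Hochberg adjustment. Genes passed with an adjusted p under 0.1 if they also had a log2 fold change of 0.8 or more in size, and peaks with one of 0.5 or more. Where no library of a group held more than 3 counts, the fold was taken against 3 counts per library. Groups do not overlap where all 6 mutant libraries lie on 1 side of all 3 TKO libraries. Members, lists and tests were chosen with earlier results of these data known. For other gene lists, up to 3 genes per direction with the largest mean changes among those called in both mutants were named, and the members were joined by the 5 genes nearest to their mean profile, and for each member the start-site peak and the peaks with the largest fall and rise called in both. Further markers, family genes and peaks named were chosen after their values were seen. Lists covered 30 other neuronal cytoskeleton genes, 23 cytoskeleton genes of other cells and markers of 8 cell types. Alternatives were DESeq2 1.42.0, other filters, scalings and thresholds, a replicate block, fits of 2 groups and leaving out each library. The fits were tested on simulated data, and depth limits precision as given in the report.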

Additional observations from a re-analysis of the deposited data

How the results depend on the processing

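Of the single-gene values against TKO under the alternatives, 475 kept the main call and 60 lost it in CARM1 knockout, and 518 and 16 in NFIB mutant tumors. For the named peaks these numbers were 299 and 19, and 294 and 24. The number of members called in CARM1 knockout went from 8 to 4 with no filter on low counts, to 5 with only the 2 groups compared, to 3 at an adjusted p under 0.05 with a log2 fold change of at least 1, and to 3 to 8 with 1 library left out. With at least 10 counts in every library 2 members could be tested and 1 was called in each comparison against TKO, in place of 8. The same filter left 16 and 18 called peaks in place of 49 and 54, as few of the 60 remained. With 1 library left out, 43 to 49 peaks were called in CARM1 knockout and 49 to 53 in NFIB mutant tumors. DESeq2 called 6 members in each comparison and gave no adjusted p for Ina and Map2, and it called 1 member between the mutants. At that comparison the 0 calls over all genes stood beside 1414 genes at an unadjusted p under 0.05 and 538 by DESeq2, and for peaks 6813 and 1060.

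The 12 to 20 calls among the other neuronal cytoskeleton genes depended on CARM1 knockout replicate 3, as given above, and with at least 10 counts in every library 12 in place of 19 were called lower in NFIB mutant tumors. At the strict threshold 2 lower and 6 higher genes of other cells were called there in place of 4 and 10.

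Differences between the mutants that changed sign were not called under any setting. Without CARM1 knockout replicate 3 they were 0.48 for Nefm, −2.26 for Map2, −2.50 for Mapt and −4.82 for Dcx, on the log2 scale. Nefm also changed from −0.05 to 0.20 without CARM1 knockout replicate 2, 0.37 without NFIB mutant replicate 1 and 0.34 without NFIB mutant replicate 3, and Gap43 from 0.57 to −1.52 without CARM1 knockout replicate 2. With each library left out in turn, the difference ranged from −1.38 to 0.48 for Nefm, −2.26 to 3.64 for Map2, −2.50 to 2.67 for Mapt, −4.82 to 6.82 for Dcx and −1.52 to 1.94 for Gap43. The cause of these changes was not tested.

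Replicate numbers are shared by the groups. Deviations of same-numbered libraries from their group means correlated at −0.30 to 0.12 in RNA-seq and −0.14 to 0.12 in ATAC-seq. For libraries with different numbers these values were −0.14 to 0.19 and −0.11 to 0.12. With 3 libraries per group centred on their mean, such values cannot tell whether the numbers pair the samples. With the replicate number as a block, 7 members (without Ina) and 47 peaks were called in CARM1 knockout and 8 and 52 in NFIB mutant tumors, and the differences between the mutants became 0.25 for Nefm and −0.45 for Mapt. The block also ended the CARM1 knockout call of the Gap43 start-site peak and the NFIB mutant calls of Synm and the leukocyte marker Cd68.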
